A study of Drosophila melanogaster with 12 samples.

Results

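The 87 genomic regions described here are 10-kb bins of the Drosophila melanogaster genome in which Polycomb was high in the larval central brain and in its repo+ glia but not in the larval fat body. They were selected by their scores in all 3 tissues, out of 9816 bins on chromosome 4, X and the arms 2L, 2R, 3L and 3R that held at least 5 scored fragments in each tissue. The score is the log2 ratio of Dam-Polycomb to Dam only, and it is centred here by taking off the median of all scored fragments of the same tissue. A bin was kept where the centred mean was at least 2 in brain, at least 2 in glia and below 1 in fat body. Since these 3 values chose the bins, their levels are a description and carry no test. The 87 bins are called brain-and-glia bins below.

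Polycomb is the chromodomain subunit of Polycomb repressive complex 1. Its chromodomain binds histone H3 trimethylated at lysine 27, the mark that Polycomb repressive complex 2 lays down, and together the complexes keep developmental regulator genes silent through cell divisions. In flies the bound DNA forms long stretches around Polycomb response elements, and the set of stretches that is silent differs between cell types. Binding was mapped by DamID, in which a bacterial adenine methyltransferase fused to Polycomb marks nearby GATC sites, and free Dam marks accessible chromatin as the background.

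The brain samples carried the construct FL.hsp70P-Dam[4-HT-intein@L127C], joined to Polycomb (PC) or Dam only, at site ZH51C in y,w males, and the intein-controlled enzyme was left uninduced. The glial samples carried repoFlp5 with min.hsp70P-STOP#1-Dam, likewise with or without PC at site ZH51C and in a y,w/w background, in males and females together, so that the enzyme was made only after a recombinase driven by repo had removed a stop cassette. The fat body samples carried the same constructs as the brain samples, in males, induced with 25 µM 4-hydroxytamoxifen. All were wandering larvae of the third instar, with 20 larvae per brain or glial sample and 10 per fat body sample, and each of the 6 groups had 2 biological replicates. The brain was dissected without the ventral nerve cord, and it contains the glia that the glial profile samples. Tissue changed together with induction and the number of larvae between brain and fat body. It changed together with the DamID system, sex and the number of larvae between glia and fat body. Brain and glia also differed in the DamID system and sex. In each comparison these cannot be told apart. The deposited table holds 1 mean over replicates per fragment and tissue, so that no spread between animals can be given. Expression was not analysed here, so the labelled tissues could not be checked against marker genes. The SDs below are spreads over the fragments of a bin, and the read depth is unknown.

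Regions are named by position in dm3 (release 5), counted from 1. No gene, promoter or sequence is given for them, because the gene tables at hand describe another release and no dm3 sequence was used here.

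The brain-and-glia bins were strongly enriched in brain and in glia, and near the genome's middle level in fat body. They made up 0.886% of the bins compared. Their median centred score was 4.79 in brain (quartiles 3.53 and 5.78) and 2.95 in glia (2.46 and 3.75), against 0.47 in fat body (0.04 and 0.80). Over all other bins the medians were -0.31, -0.10 and 0.22 in the same order. Ranked among all 9816 bins, the median brain-and-glia bin stood at percentile 92.9 in brain and 93.6 in glia, against 57.2 in fat body. As deposited, without centring, the medians were 3.56 in brain and 2.35 in glia, against 0.56 in fat body. The name "not fat body" therefore means a level around the fat body median, and the score does not show whether Polycomb was absent. In 21 of the 87 bins the fat body mean lay below its own median, where 42.3% of all bins lay. In 26 it lay from 0 to 0.5 above the median, and in 40 from 0.5 to 1 above it.

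**Figure D1:**
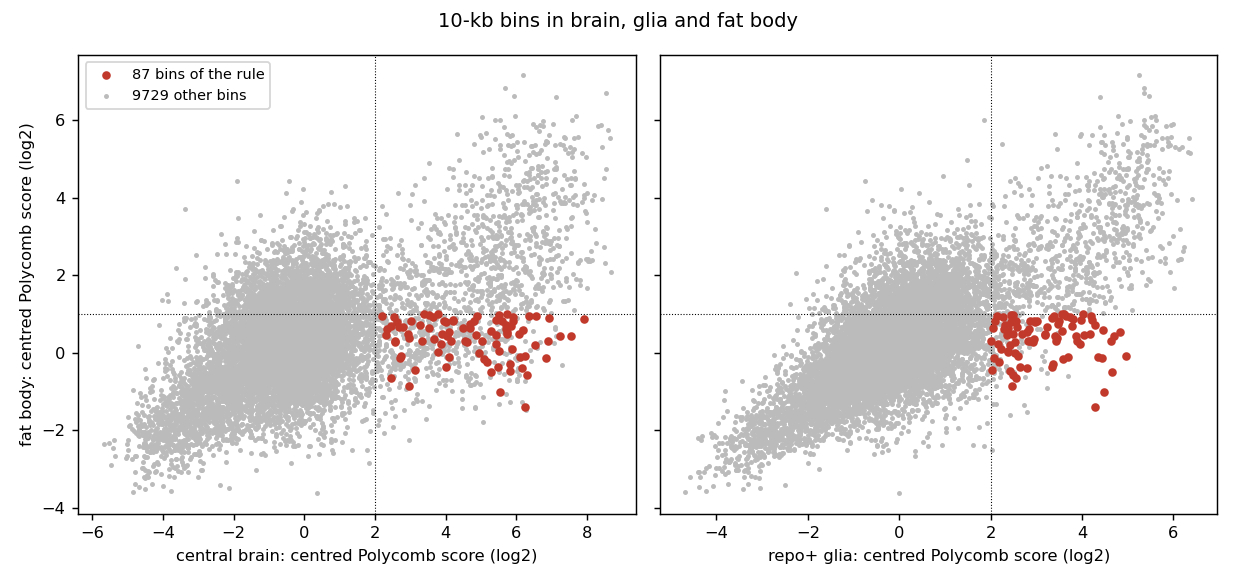
Centred Polycomb scores (log2) of 10-kb bins in fat body (vertical axes) against central brain (left) and repo+ glia (right). Red points are the 87 brain-and-glia bins, grey points the 9729 other bins, and dotted lines the thresholds of 2 and 1. The red points lie in the lower right corner of each panel, below most bins that are high in brain and glia. In the left panel grey points share that corner, among them 298 bins high in brain alone.

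Among bins high in both nervous system profiles, a fat body mean below 1 was the least frequent of 3 fat body levels. Brain reached 2 in 14.0% of all bins and glia in 9.99%, while 72.0% had a fat body mean below 1. Both brain and glia reached 2 in 776 bins (7.91%). Of these, 517 (66.6%) also reached 2 in fat body, 172 had a fat body mean from 1 to 2, and 87 (11.2%) stayed below 1. The 517 bins high in all 3 tissues had median centred scores of 5.91 in brain and 4.45 in glia, so the brain-and-glia bins, at 4.79 and 2.95, were lower in those tissues too. The 172 intermediate bins lay between them, at 5.24 in brain and 3.33 in glia, against 1.56 in fat body. Counts by arm were 22 on 2L, 18 on 2R, 17 on 3L, 19 on 3R, 1 on chromosome 4 and 10 on X. As a share of the bins high in brain and glia, they ranged from 5.88% on chromosome 4 (1 of 17) and 7.46% on X to 16.8% on 2R.

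The size of the contrast varied widely among the 87 bins. The gap between the lower of brain and glia and the fat body ran from 1.20 to 5.69, with a median of 2.58, and it was at least 3 in 29 bins. Brain was at least 5 in 40 bins and glia at least 4 in 16, and 12 bins met both. Across the 87 bins, which share libraries and whose ranges the thresholds cut, Pearson r was 0.39 between brain and glia, -0.09 between brain and fat body and -0.03 between glia and fat body. Brain exceeded glia in most bins, with a median difference of 1.41 and a range of -1.32 to 4.15. Glia exceeded brain in 13 bins, which is 14.9% of the 87, against 9.41% of the 776 bins high in both and 56.5% of all bins. These differences include the wider scale of the brain scores, and the DamID system and sex differed between brain and glia as well. In the 98 bins that met the rule after quantile normalization, the medians were 3.40 in brain and 3.15 in glia.

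**Figure D2:**
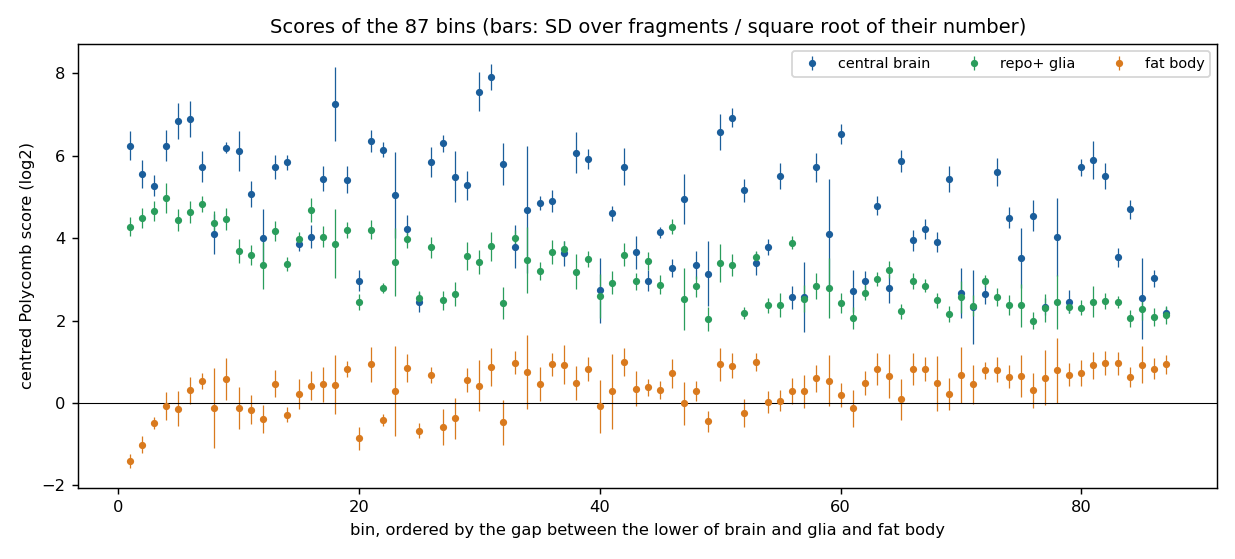
Centred Polycomb scores (log2) of each of the 87 bins, ordered from the largest gap to the smallest. Points are bin means in central brain (blue), repo+ glia (green) and fat body (orange), and bars are the SD over fragments divided by the square root of their number. Brain spans 2.19 to 7.91, glia 2.00 to 4.97 and fat body -1.41 to just under 1.

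The largest gap was on 3R from 11820001 to 11830000. The centred mean was 6.25 in brain (SD 1.51, 19 fragments) and 4.28 in glia (SD 1.27, 29 fragments), against -1.41 in fat body (SD 0.85, 28 fragments). Every scored brain fragment there lay between 3.80 and 10.22, every glial fragment between 1.87 and 6.78, and every fat body fragment between -2.89 and 0.63, so the fragments of both nervous system profiles did not overlap those of fat body. Such a complete separation occurred in 14 of the 87 bins, against 0.326% of all bins, a comparison that the rule itself shapes. Brain was fully separated from fat body in 37 of the 87 (3.58% of all bins), and glia in 19 (0.683% of all bins).

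At its end, the fat body profile changed between adjacent fragments, that is at a single GATC site. The 7 fat body scores from 11827347 to 11830065 lay between -2.67 and -1.42, and the next 5, from 11830066 to 11833307, lay between 4.21 and 5.16. Brain and glia were high on both sides. Over the 5 scored fragments on each side, the fat body mean was -2.08 on the low side and 4.57 on the high side, while brain had 5.81 and 6.29 and glia 3.28 and 5.06. The brain and glial stretch ran from 11810001 to 11870000. Its first bin, from 11810001, was also a brain-and-glia bin, at 5.74 in brain and 4.83 in glia, against 0.53 in fat body. The bins after 11820001, from 11830001, 11840001 and 11850001, had 5.25, 3.51 and 3.85 in fat body. Its last bin, from 11860001, had 1.43. The fat body was thus high over 3 later bins of a stretch that brain and glia covered from its first bin.

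The next 3 largest gaps stood side by side on 2L, from 18860001 to 18890000, which was one of the 3 runs of at least 3 adjacent brain-and-glia bins. The bin from 18860001 had 5.55 in brain (SD 1.33, 15 fragments) and 4.49 in glia (SD 0.95, 16 fragments), against -1.01 in fat body (SD 0.76, 13 fragments). The bin from 18870001 had 5.27 in brain and 4.65 in glia, against -0.49 in fat body. The bin from 18880001 had 6.25 in brain, the highest glial value of the set at 4.97, and -0.08 in fat body. Glia changed here between adjacent fragments, at the GATC site before 18860032, and brain somewhere between 18858146 and that site. The fragment from 18858912 to 18860031 had -1.16 in glia and -1.83 in fat body, with no brain score, and the last brain score before it, from 18857707, was -5.14. The fragment that spans 18860032 to 18860243 scored 5.96 in brain and 4.63 in glia, against -0.16 in fat body, and fat body stayed between -1.25 and -0.16 up to 18862969. Further on, the bin from 18890001 just missed the rule with 1.05 in fat body, and the bin from 18900001 met it with 5.08 in brain and 3.59 in glia, against -0.16 in fat body. The fat body reached 2.17 and 3.04 only in the last bins of the stretch, from 18920001 and 18930001. On the other side, the bin from 18810001 was high in all 3 tissues, at 6.31 in brain and 4.33 in glia, with 4.43 in fat body.

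The longest run, of 4 bins, lay on 2L from 15400001 to 15440000. Brain increased along it, with 3.79, 4.22, 4.85 and 5.43 in the successive bins. Glia had 2.37, 2.85, 3.2 and 2.16, and fat body 0.03, 0.82, 0.47 and 0.22. Brain had no break at either end: in the bins on either side it was still 3.82 (from 15390001) and 5.47 (from 15440001), while glia was 1.80 and 1.19. The fat body means of these 4 bins rested on 8 to 9 fragments each, against 17 to 23 in brain and 22 to 31 in glia. The run was thus one part of a longer brain stretch in which glia reached 2. The bins from 15350001 and 15360001 in the same stretch also had glia above 2, at 3.23 and 2.49, and the second of them was a brain-and-glia bin, with 0.48 in fat body.

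The third run, on 3L from 5820001 to 5850000, was a low plateau. Brain had 2.45, 2.97 and 2.46, glia 2.55, 2.46 and 2.33, and fat body -0.67, -0.86 and 0.69. Brain and glia were level with each other here. The bins on either side were below 2 in brain, at 1.68 (from 5810001) and 1.93 (from 5850001), with 2.33 and 1.75 in glia. Beyond the second of them, brain was high without glia: the bins from 5860001, 5870001 and 5880001 had 4.48, 5.83 and 6.48 in brain, 0.36, -0.18 and -0.33 in glia and -0.98, 0.02 and 0.56 in fat body.

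**Figure D3:**
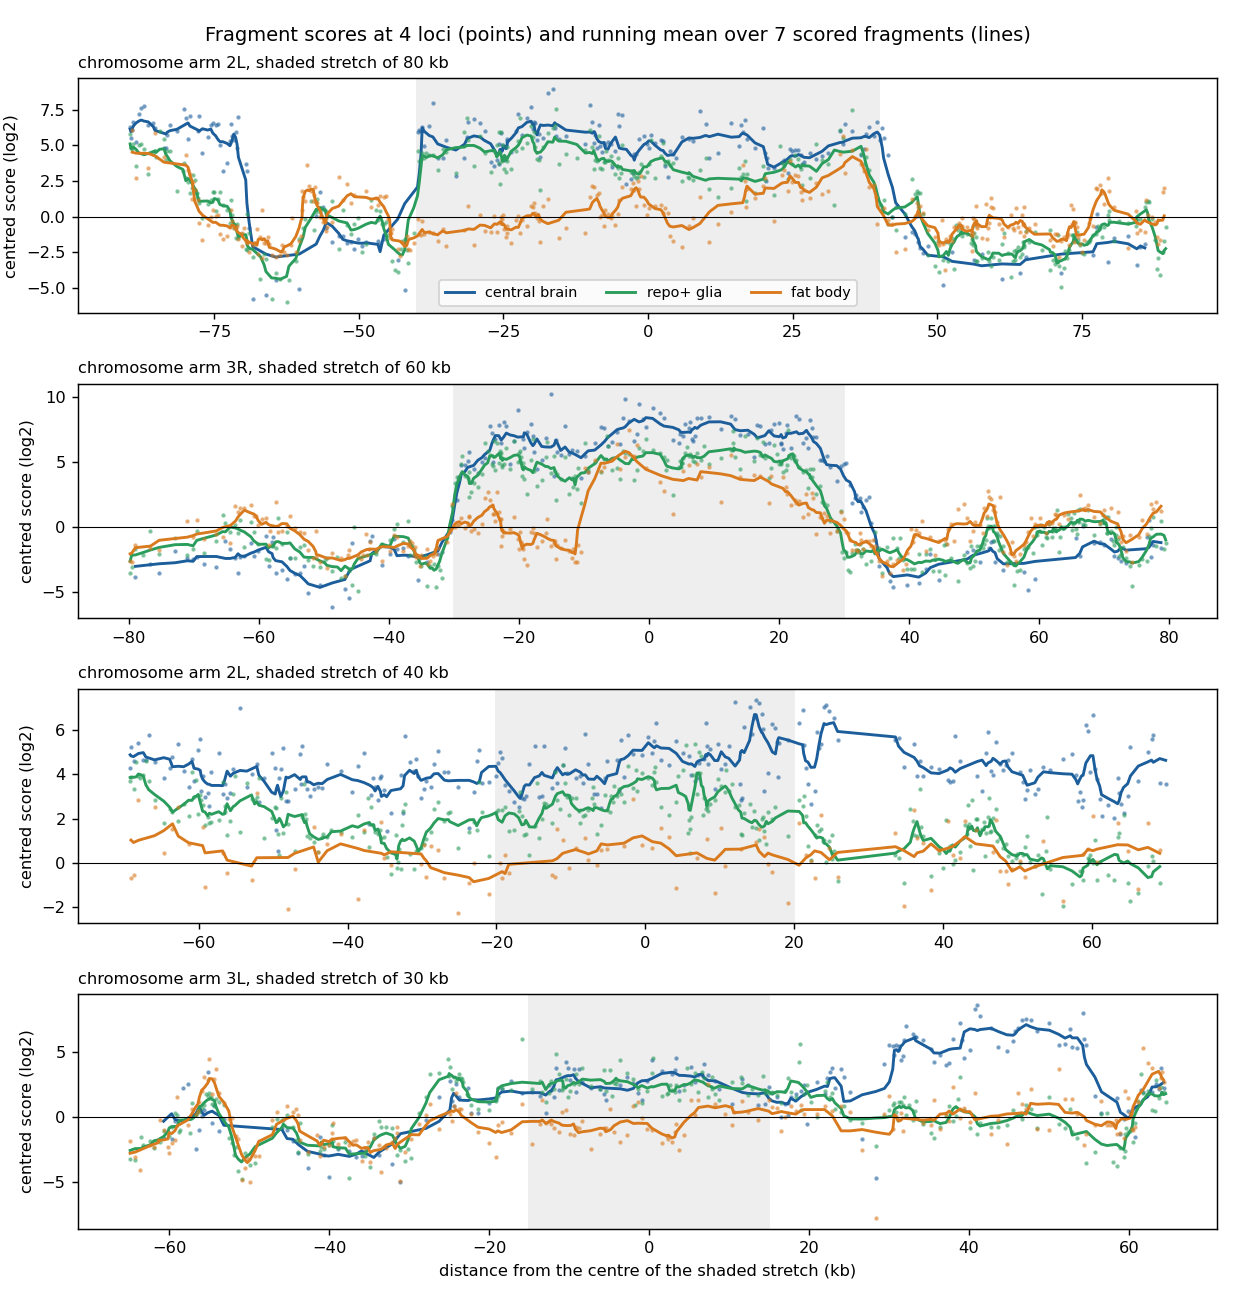
Centred scores (log2) of single GATC fragments (points) and their running mean over 7 scored fragments (lines) around 4 loci, by distance in kb from the centre of the shaded part. From top to bottom, the shaded parts are the 80-kb brain and glial stretch on 2L that starts at 18860001, the 60-kb stretch on 3R that starts at 11810001, and the runs on 2L from 15400001 and 3L from 5820001. Blue is central brain, green repo+ glia and orange fat body. On 3R the fat body line jumps inside a stretch where both other lines stay high, and on 2L (top) it climbs gradually towards the far end.

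On 3R from 19030001 to 19040000, the fifth largest gap, the fat body change lay inside the bin. The bin means were 6.85 in brain (SD 1.69, 15 fragments) and 4.44 in glia (SD 1.28, 22 fragments), against -0.14 in fat body (SD 1.88, 19 fragments). Fat body scores lay between 0.96 and 4.22 from 19027892 to 19035535, and between -3.32 and -0.07 from 19035780 to 19039302. From 19035780 to 19039302, brain lay between 5.19 and 9.25 and glia between 2.92 and 6.59. In the last fragment of the bin, from 19039303 to 19040355, brain was lower too, at 2.02, with 1.15 in glia, against -3.05 in fat body. The mean of this bin therefore mixed fat body fragments above the fat body median with others below it, and brain and glia stayed high over the lower fat body fragments except the last.

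In the other bins among the 15 largest gaps, brain lay between 3.86 and 6.89. On 3R from 2780001 the means were 6.89 in brain and 4.64 in glia, against 0.31 in fat body, and the bins on both sides had 1.36 and 1.67 in fat body, with brain at 6.96 and 6.54. On 3R from 7160001 they were 6.12, 3.69 and -0.12, and on 2L from 3690001 they were 5.84, 3.37 and -0.29, in the order brain, glia and fat body. On 2L from 5470001 brain had 5.73, glia 4.17 and fat body 0.47. On X from 17240001 brain had 6.20 (SD 0.41, 10 fragments), glia 4.47 and fat body 0.58, the last from the minimum of 5 fragments. The bin on 3R from 8900001, at 4.01 in brain and 3.34 in glia, against -0.38 in fat body, was uneven in brain (SD 2.55). The bin on 3L from 20690001 had 3.86 in brain and 3.97 in glia, against 0.21 in fat body, and that from 20600001 is described with the bins where glia was higher.

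The highest brain value of the set, 7.91, was on 3R from 12800001, with 3.80 in glia and 0.87 in fat body. It was the last bin of a 33-bin stretch from 12480001 to 12810000, the longest to hold a brain-and-glia bin, in which 27 bins reached 2 in fat body. Fat body changed there between 12803490 and 12803491, with 5-fragment means of -0.35 on the low side and 5.57 on the high side. Brain was at 7.47 and 7.04 on those sides, and glia at 3.51 and 4.84. On the other arms the highest brain values were 6.93 on 2L (from 5500001), 7.25 on 2R (from 5870001), 7.56 on 3L (from 3630001), 6.20 on X (from 17240001) and 2.54 in the single chromosome 4 bin (from 1100001). The highest glial values were 4.97 on 2L, 4.20 on 2R (from 20940001), 4.36 on 3L (from 20600001), 4.83 on 3R (from 11810001), 4.69 on X (from 7100001) and 2.27 on chromosome 4.

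Of the 13 bins in which glia exceeded brain, several lay close to each other. On 3L they included the bins from 20600001 (4.10 in brain, 4.36 in glia, -0.12 in fat body), 20620001 and 20690001, and those from 10940001 and 11010001. On 2R they included 18890001 (2.56 in brain, 3.89 in glia, 0.29 in fat body), 18900001 and 18920001. The bin on X from 7100001 had 4.04 in brain and 4.69 in glia, against 0.42 in fat body. The fat body mean of the bin from 20600001 rested on 5 fragments with an SD of 2.16, so its sign is not firm.

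Most brain-and-glia bins were part of a longer stretch, and in most of those the fat body was high elsewhere in the same stretch. The 87 bins fell into 70 runs, of which 57 were single bins, 10 had 2 bins, 2 had 3 and 1 had 4. Adjacent bins with brain and glia at 2 or more, and at least 5 scores in both, were then joined whatever the fat body level. A bin with fewer scores ended a stretch, as on 3R from 2800001 (7.67 in brain, 4.21 in glia from 4 fragments). The joining gave 180 stretches, 61 of them with at least 1 brain-and-glia bin. In 36 of the 61, holding 50 of the 87 bins, some other bin reached 2 in fat body. In 12, holding 18 bins, the fat body reached 1 to 2 but not 2. In the other 13, holding 19 bins, every bin was a brain-and-glia bin, and 10 of these were single bins. Of the 119 stretches with no brain-and-glia bin, 98 reached 2 in fat body. Stretches that held a brain-and-glia bin had a median length of 4 bins, and those without had 3.

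**Figure D4:**
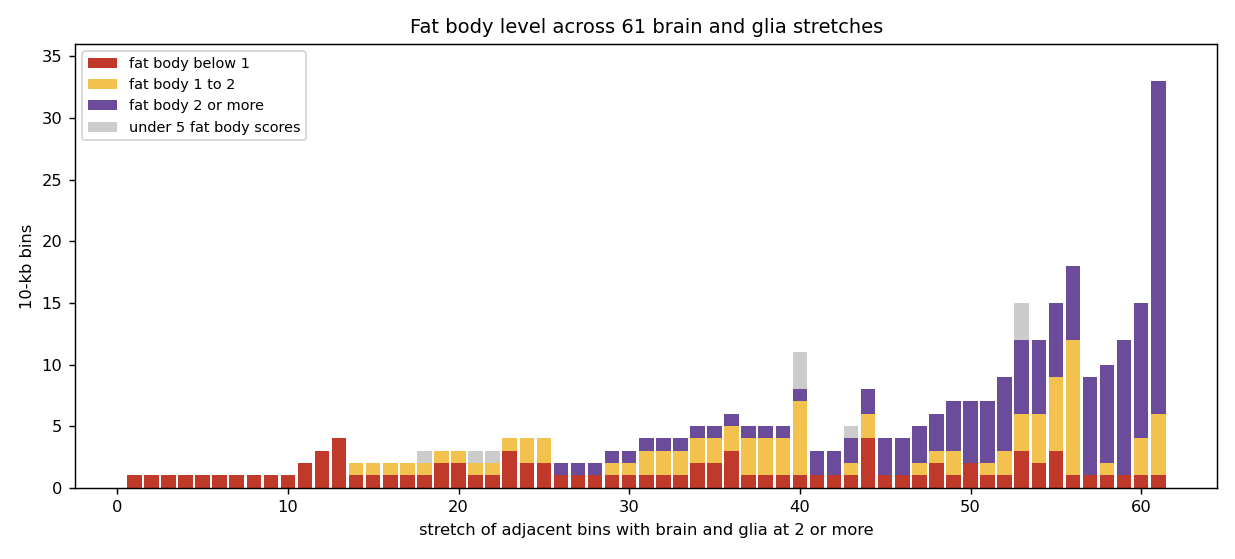
The 61 stretches of adjacent 10-kb bins with brain and glia at 2 or more that hold a brain-and-glia bin, each a bar whose height is its number of bins. Colours give the fat body level of the bins: below 1 (red, the brain-and-glia bins), 1 to 2 (yellow), 2 or more (purple) and too few scores (grey). The first 13 bars are red throughout, the next 12 hold yellow but no purple, and the last 36 hold purple.

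Among stretches without any bin above 1 in fat body, besides the runs on 2L (from 15400001) and 3L (from 5820001), were a pair of bins on 2R from 20730001 to 20750000, with means of 5.51 in brain and 2.20 in glia, against -0.08 in fat body. Of the 10 single bins of this kind, 5 had high brain and lower glial means, at 5.50 to 6.53 in brain and 2.38 to 2.79 in glia. Examples are 2R from 17410001 (6.15 in brain, 2.79 in glia, -0.41 in fat body) and 3R from 7100001 (5.81, 2.43 and -0.47). The other 5 were low in brain too, at 2.19 to 2.97, with 2.07 to 3.45 in glia.

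In the 36 stretches that were partly high in fat body, the largest fat body change between 5 scored fragments and the next 5 had a median size of 3.00 (range 1.35 to 6.65), the maximum in each stretch by construction. It was taken over the whole stretch, so it need not lie at a brain-and-glia bin. On 2L, for example, it lay after 11441427, while the brain-and-glia bin of that stretch starts at 11300001. The low side was not always low in fat body, with 3.26 on 3L in the stretch from 21440001. On the low side of that change the medians were 4.94 in brain and 3.44 in glia, against 0.39 in fat body. On the high side they were 6.14 in brain and 4.54 in glia, against 3.10 in fat body. Since the stretches were joined by brain and glial means of 2 or more, high values of both on both sides were largely set in advance. Brain and glia were at 2 or more on both sides in 27 stretches. In 17 of these 27, the low side was also below 1 in fat body and the high side at 2 or more. In the other 9 of the 36, brain or glia was below 2 on the low side as well. An example is 2R from 5860001 to 5880000, where the low side had 2.26 in brain and -0.58 in glia, against -0.44 in fat body. The high side had 8.48, 5.55 and 4.34 in the same order. The brain-and-glia bin there, from 5870001, thus held a side with lower glial and fat body scores. The brain value of that side, 2.26, was also the lowest of the 8 brain fragments in the bin. It may therefore rest on fewer than 5 fragments, and every scored brain fragment of the bin was at 2 or more. The bin means of 7.25 in brain and 3.87 in glia, against 0.44 in fat body, had SDs of 2.54, 3.39 and 2.67.

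How even a bin was differed among the 87. In 72 at least 75% of the scored brain fragments were at 2 or more, and in 54 at least 75% of the glial ones. In 29 no fat body fragment reached 2, while in 13 at least 25% did. In 43 bins brain and glia were both even by this measure and under 25% of fat body fragments reached 2. The SD over fragments was at least 2 in all 3 tissues in 8 bins, of which 5 are on 3R (from 4140001, 12250001, 13370001, 17390001 and 18970001) and 3 on 2R (from 5870001, 7460001 and 10360001). Of the 68 bins in stretches of at least 3 bins, 40 were an end bin and 28 lay inside. Only the first and last bin of a stretch are end bins, whatever its length, so these counts cannot be compared directly. The share of end bins among all bins of those stretches was not computed, so a preference for either place was not tested. In fragments scored in all 3 tissues, brain and glia both exceeded fat body in 908 of 969 (93.7%) of those within the 87 bins, against 25.3% of such fragments over all bins compared. The rule used these same scores.

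Beside the runs, brain was high more often than glia at each distance up to 50 kb. In the bins directly next to a run, the median was 4.75 in brain (139 bins) and 2.5 in glia (140 bins), against 1.09 in fat body (134 bins), so the fat body was higher there than in the runs (0.47). At 50 kb from a run the medians were 1.43 in brain and 0.77 in glia, against 0.38 in fat body. The share of neighbouring bins at 2 or more was 77.7% in brain and 54.3% in glia, against 21.6% in fat body, at 10 kb, and 46.9%, 26.7% and 16.0% at 50 kb. Over all bins compared, the share was 14.0% in brain and 9.99% in glia. It was not computed for fat body, so whether the fat body shares were raised cannot be said. A bin near more than 1 run was counted for each. Of 133 directly flanking bins with enough scores, 29 were at 2 or more in all 3 tissues and 38 were high in brain and glia with fat body from 1 to 2. A further 36 were high in brain but not glia, 5 in glia but not brain, and 25 in neither. These neighbours were partly set by the rule, since a flanking bin that met it would have been in the run.

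**Figure D5:**
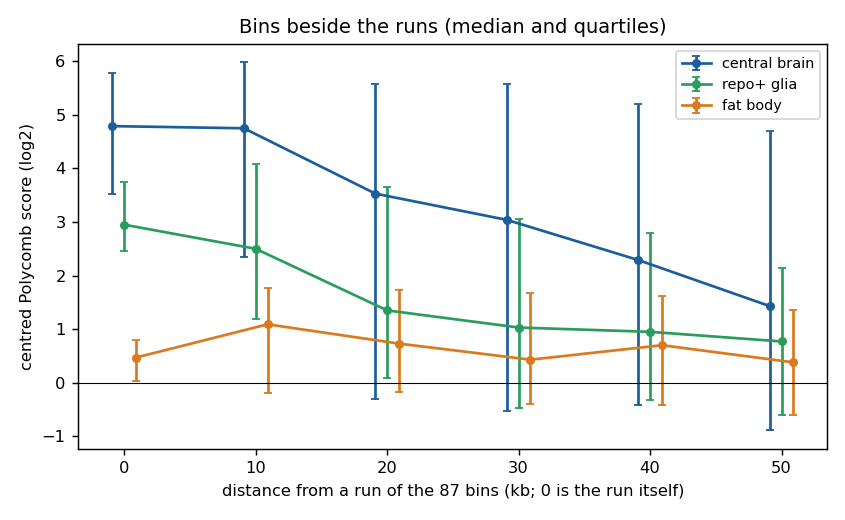
Median centred score (log2, vertical axis) of bins at 10 to 50 kb from a run of brain-and-glia bins, with the 87 bins themselves at 0. Bars are quartiles over bins, and points are offset sideways by profile: blue central brain, green repo+ glia, orange fat body. At each distance the brain median lies above the glial one, and the glial one above that of fat body, which is highest at 10 kb, at 1.09.

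The precision of these values is limited by how many fragments were scored, which was lowest in fat body. A brain-and-glia bin had a median of 15 scored fragments in brain and 22 in glia, against 12 in fat body, and 24 of the 87 had only 5 to 8 in fat body. The scatter of a bin mean, from alternate fragments of 82 bins with at least 3 in each set, was 0.26 in brain and 0.18 in glia, against 0.23 in fat body. The rule was met by both sets of alternate fragments in 57 of the 82 bins and by neither in 1. Brain passed in both sets in all 82, glia in 75 and fat body in 62. The means that chose these bins used the same fragments, which favours agreement between the sets. The bins had many neighbours at the cut. The 5 nearest inside the fat body threshold lay at 0.96 to 1.00 and the 5 nearest outside at 1.01 to 1.03, with 40 bins inside and 73 outside within 0.5. For glia the 5 nearest lay at 2.00 to 2.09 inside and 1.97 to 1.99 outside, and for brain at 2.19 to 2.46 inside and 1.81 to 1.99 outside.

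Fragment features that the rule did not use also differed between the classes. The median fragment length in a brain-and-glia bin was 177 bp, against 205 bp in bins high in all 3 tissues, 216.5 bp in bins high in brain alone and 228 bp over all bins. The median number of fragments per bin was 31, against 28, 26 and 26. The share of fragments with a score was 52.4% in brain and 70.6% in glia, against 42.3% in fat body, in the 87 bins, and 48.6%, 69.0% and 52.9% over all bins. In bins high in all 3 tissues the fat body share was also 42.3%, but brain had 59.1% and glia 73.1%. For the 172 intermediate bins the brain share was 61.0% and the glial one 74.6%, with 44.4% for fat body. Bins high in brain alone had a brain share of 62.7% and a lower glial one, 65.9%, with 45.6% for fat body. The brain share of the 87 bins thus exceeded that over all bins but was below that of each of these classes. Of brain-scored fragments in the 87 bins, 71.0% also had a fat body score, against 79.4% in the other bins, and of glia-scored fragments 59.5%, against 73.0%. In the 87 bins, the glial median was 2.99 at fragments with a fat body score and 3.57 at those without, and the brain medians were 4.76 and 4.82. In the other bins fragments without a fat body score were higher as well, with glial medians of -0.06 with a score and 0.63 without, and brain medians of -0.19 and 0.91. A further 28 bins reached 2 in brain and glia but had under 5 fat body scores, 3.48% of 804, and could not be placed. Over all 10401 bins with at least 5 brain and glial scores, the share with under 5 fat body scores was 5.62%. The part of fragment length and missing scores in the low fat body means was not tested.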

How the data were processed

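The authors deposited 1 log2 ratio of Dam-Polycomb to Dam only per GATC fragment and tissue, averaged over replicates per the file headers. Per the series' design text, the brain Dam-only replicates each had 3 technical replicates. The submitters' processing notes name cutadapt, Bowtie2, HTSeq and dm3, without versions. The sources used here do not say why some fragments lack a score. Steps at log2 of small count ratios (1765, 4195 and 3832 fragments in brain, glia and fat body, tolerance 0.0011) outnumbered those of other log bases (at most 457). Of 356504 fragments, 122591, 196103 and 152409 were scored, with medians of -1.24, -0.60 and 0.09.

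Bins, centring and rule are as stated in the report. Bins, rules and lists were chosen with earlier results of these data known. Named are runs of at least 3 bins, the 15 largest gaps and each arm's highest brain and glial bins. Other bins, the stretches, the steps within them and the evenness limits were chosen after values were seen. Without replicate values, no test was run and no error between animals exists. The procedure was tested on simulated data with planted bins well away from the thresholds, so calls near a threshold were not probed. Python 3.11.15, numpy 2.4.6, pandas 2.3.3 and matplotlib 3.10.9 were used.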

Additional observations from a re-analysis of the deposited data

How the results depend on the processing

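By construction, the limits and the bin size change how many bins can pass. The number of brain-and-glia bins (87, in 70 runs) depended on them and on the centring. It was 161 bins in 115 runs with brain and glia at 1.5 or more, 21 bins in 17 runs with a median fat body score of -0.37 with fat body below 0, and 56 bins with a minimum of 10 scored fragments. It was 134 with bins of 5 kb and 44, in 37 runs, with bins of 20 kb. The other 11 alternatives gave 59 to 128 bins. The 128 bins, in 97 runs, came from centring on the median of bin means, and they included all 87. Of the 87 bins, 70 met the rule after quantile normalization (98 bins), 69 with fragments scored in all 3 tissues (79), 78 with bin medians (115), 67 with means weighted by fragment length (110) and 66 with fragments of 200 to 2000 bp (75). Leaving out X left 77. Keeping bins with under 25% of fat body fragments at 2 or more, an alternative chosen after seeing the data, left 74. The median brain score stayed between 3.40 and 5.27 and the glial one between 2.37 and 3.50 in all 16 alternatives, within 1 SD over the bins. Each alternative again required a minimum in brain and glia, which keeps these medians high by construction. No paired analysis was possible because the table holds 1 mean over replicates per tissue, and for the same reason no replicate could be left out. Depth is unknown, so the counts behind a score cannot be given.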

Other observations

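The heterochromatic scaffolds were not part of the 87 bins. Of 21 scaffold bins with at least 5 scores in each tissue, 0 met the same rule, so no such bin was seen among the few that could be read there.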
